A study of Mus musculus with 2 samples.

Results

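Expression of 7 subunit genes of the GABA-A receptor (Gabra2, Gabra3, Gabra4, Gabra5, Gabrb1, Gabrb2 and Gabrd) was described across the regions of a mouse brain section. They are 7 of the 19465 genes of the probe panel and 7 of its 19 GABA-A or GABA-C receptor subunits. They were chosen by symbol, with earlier results of these data known. The values came from Visium CytAssist, an assay that ligates paired probes on RNA in the tissue and counts them as unique molecular identifiers (UMIs) on a grid of barcoded spots. A spot can hold several cells or parts of them.

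The labels name 2 samples, both brain tissue of male mice aged 6 months. One is of the G2-3 line, whose alpha-synuclein has the A53T substitution, and the other is wild type (WT), with 1 sample of each. The sources used here do not name the promoter of the transgene or the number of animals. The count matrices deposited under both labels were the same file, with 8667725 nonzero entries, and were counted as 1 library, so nothing below compares genotypes and the genotype of this library is not settled. The spot lists were not identical. In the WT list all 2487 tissue spots had counts, whereas 751 of the 2969 tissue spots of the G2-3 list had no counts. The 2485 tissue spots of the WT list with at least 500 UMIs were used. They held 20997947 UMIs, with a median of 6686 per spot and a range of 1183 to 80174, and the 7 subunits accounted for 7154 of them. With 1 library there was no replicate check and no test. The 95% intervals given with values are exact intervals for counting error only, Poisson for levels, Clopper-Pearson for shares and conditional for ratios of counts.

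GABA-A receptors are chloride channels built of 5 subunits around a pore and opened by the inhibitory transmitter GABA. Most hold alpha and beta subunits with either a gamma or a delta subunit. Receptors with alpha2 or alpha3 and a gamma subunit gather at synapses and carry fast, phasic inhibition. Receptors with delta, paired with alpha4 in the forebrain, and many receptors with alpha5 lie outside synapses and carry a slow, tonic current. In the hippocampus, alpha4 and delta are known from dentate granule cells and alpha5 from pyramidal cells. Beta subunits take part in both kinds of receptor.

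Coordinates and promoters were taken from RefSeq tables of build GRCm38.p6, to which the name mm10 in the submitters' processing notes belongs. Gabra2 (chr5:70958392-71095849), Gabra4 (chr5:71569734-71658308) and Gabrb1 (chr5:71657921-72149572) lie in 1 cluster together with Gabrg1. Gabra4, on the minus strand, and Gabrb1, on the plus strand, start towards each other and overlap by 388 bases. Gabra5 (chr7:57407669-57591016) lies 20453 bases from Gabrg3, and Gabrb2 (chr11:42419515-42632591) lies 98442 bases from Gabra6. Gabra3 (chrX:72432676-72656919) and Gabrd (chr4:155384979-155398098) are apart from the other 5. The sources used here do not say where the probes lie in each gene, and so whether the overlap matters.

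The promoter table held windows for 6 of the 7 genes, each from 250 bases before a start to 50 after it. Those of the head-to-head pair Gabra4 and Gabrb1 and the first of the 3 windows of Gabrb2 are shown, because Gabra4 and Gabrb1 share a locus and Gabrb2 had a regional pattern unlike that of Gabra4. Motifs were searched on both strands and their matches are in capitals: the CRE (TGACGTCA), the GC box (GGGCGG), an E-box (CAGCTG), an Egr site (GCGNGGGCG) and the TATA box (TATAAA).
Gabra4 (chr5:71658259-71658558, minus strand): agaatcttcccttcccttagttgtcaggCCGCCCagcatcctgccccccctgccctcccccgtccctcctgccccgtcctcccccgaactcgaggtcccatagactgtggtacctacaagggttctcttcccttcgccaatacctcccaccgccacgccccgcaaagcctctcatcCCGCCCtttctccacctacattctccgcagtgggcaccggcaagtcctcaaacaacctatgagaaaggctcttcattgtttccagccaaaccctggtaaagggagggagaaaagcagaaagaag
Gabrb1, window 1 (chr5:71657671-71657970, plus strand): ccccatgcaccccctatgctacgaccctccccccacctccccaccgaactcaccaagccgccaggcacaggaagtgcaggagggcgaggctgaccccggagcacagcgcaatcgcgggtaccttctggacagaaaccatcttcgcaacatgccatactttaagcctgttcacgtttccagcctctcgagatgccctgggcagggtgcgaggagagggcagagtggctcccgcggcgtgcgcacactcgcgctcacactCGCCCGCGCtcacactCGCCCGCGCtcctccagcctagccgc
Gabrb2, window 1 (chr11:42420190-42420489, plus strand): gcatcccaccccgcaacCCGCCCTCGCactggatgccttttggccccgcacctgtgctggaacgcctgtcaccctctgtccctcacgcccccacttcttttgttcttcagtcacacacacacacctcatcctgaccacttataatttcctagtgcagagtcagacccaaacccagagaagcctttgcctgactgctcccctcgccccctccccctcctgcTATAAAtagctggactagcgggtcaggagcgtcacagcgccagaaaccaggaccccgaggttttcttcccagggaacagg
The Gabra4 window held 2 GC boxes, and the Gabrb1 window held 2 Egr sites that follow each other near its end. The Gabrb2 window held 1 GC box that overlaps 1 Egr site, and 1 TATA box. Of 32851 promoter windows of this length in the table, 35.7% held a GC box, 5.55% an Egr site and 13.6% a TATA box. The CRE (1.79% of windows) and the E-box (16.3% of windows) had no match in any window of the 6 genes. GC content over the windows of the 6 genes ran from 39.3% in the second of Gabra3 to 70.0% in that of Gabra2, with 58.7% in that of Gabra4 and 66.0% and 50.3% in the 2 of Gabrb1, around a median of 52.7% over all windows of the table. A match describes the letters and is not evidence of binding.

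The spots fell into 17 regions by clustering without these 7 genes, of which 10 could be named from region markers. They comprised the dentate gyrus (67 spots, led by C1ql2 and Pcdh20, all 10 of its markers high), upper cortex (140 spots, Clec18a and Igfn1), 2 regions of deep cortex (228 spots led by Myl4 and Col5a1, and 75 led by Ccn2 and Cplx3, markers of the layer above the white matter) and the ventral midbrain (83 spots, Slc6a3 and Th, 8 of 9 dopamine neuron markers high). The other 5 named regions were dorsal midbrain, hindbrain with pons, a pair of white matter regions and meninges. The 7 that met no name are called by their leading genes. Depth differed between regions, from a median of 2528 UMIs per spot in the Klk6/Gfap white matter to 23395 in the dentate gyrus. Levels are therefore given as CPM, in which the UMIs of a gene are scaled to the total of its region. Probe pairs capture genes with unequal efficiency, so levels are compared for the same gene between regions and not between genes. In spots, fewer cells of a type and less RNA per cell cannot be told apart.

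**Figure D1:**
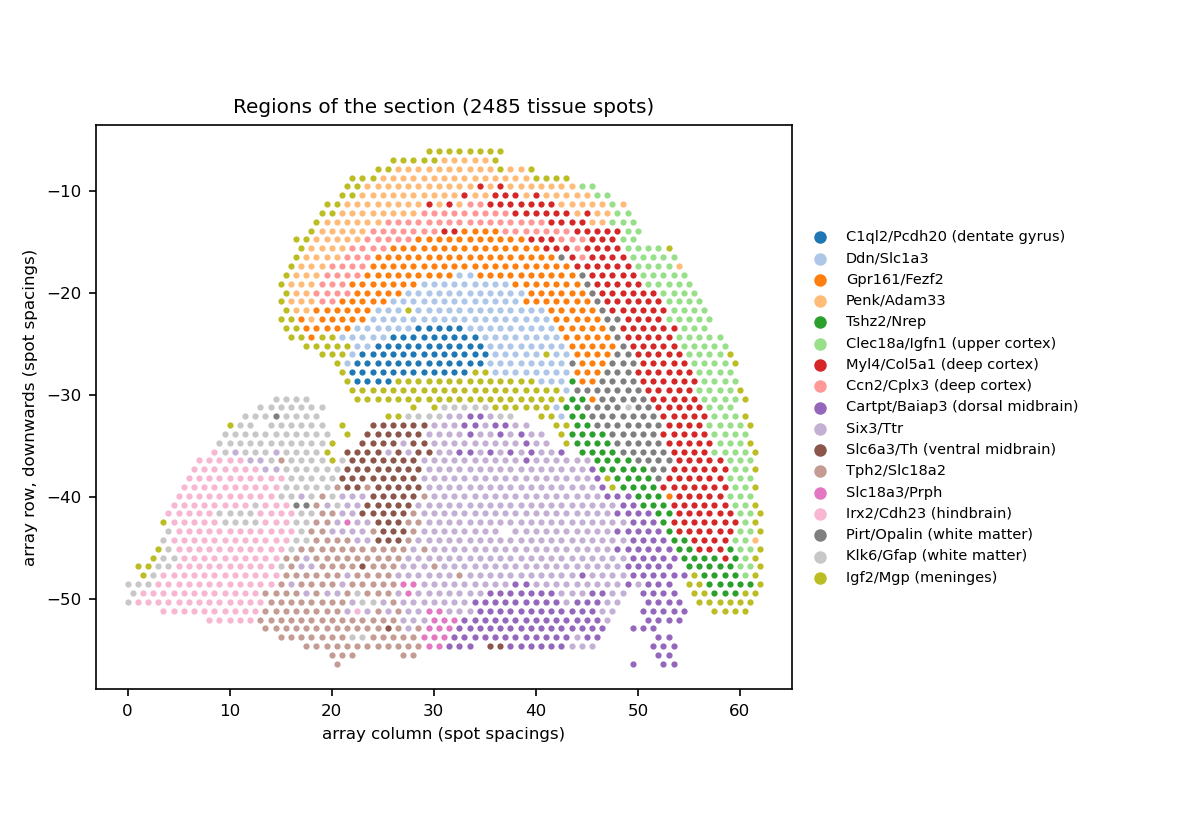
Map of the 2485 tissue spots on the array grid, with both axes in spot spacings and each spot coloured by its region. The dentate gyrus is a compact group of 67 spots inside the arc of the Gpr161/Fezf2 region, and the ventral midbrain lies in the lower left part.

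Among the subunits tied to tonic inhibition, Gabra4, which encodes alpha4, was highest in the dentate gyrus, at 164 CPM (interval 146 to 183, 304 UMIs). Upper cortex followed with 122 CPM (107 to 140), then Penk/Adam33 with 116 and the Myl4/Col5a1 deep cortex with 98.6. The dentate gyrus exceeded upper cortex by 0.42 on the log2 scale (0.16 to 0.68), beyond counting error, whereas upper cortex and Penk/Adam33 did not differ beyond it. The low end held Klk6/Gfap at 24.4 CPM (10 UMIs) and the ventral midbrain at 20.2 CPM (8 UMIs), which did not differ beyond counting error. The hindbrain followed at 7.08 CPM (15 UMIs). Slc18a3/Prph had no Gabra4 UMI in 122947 UMIs over 17 spots. A limit of 3 counts corresponds to 24.4 CPM there, so its place at the low end cannot be read. Gabra4 was thus high in cortical and hippocampal regions and low in midbrain and hindbrain. It was not confined to the former: meninges, at 73.1 CPM, did not differ beyond counting error from the Ccn2/Cplx3 deep cortex at 75.2. The Pirt/Opalin white matter had 60.6 CPM.

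Gabrd, which encodes delta, had its highest level in upper cortex, at 71.4 CPM (59.6 to 84.9, 129 UMIs), and not in the dentate gyrus, which had 51.6 CPM (41.8 to 63.1, 96 UMIs). The gap of 0.47 on the log2 scale (0.08 to 0.86) was just beyond counting error. All 140 upper cortex spots lay in the higher columns of the array and 64 of the 67 dentate gyrus spots in the lower ones. Region and array side were thus not separated in this gap or in that of Gabra4. Gabrd was 8.36 CPM in the lower and 27.7 in the higher columns of Gpr161/Fezf2, but Six3/Ttr (5.12 and 4.05) and Ddn/Slc1a3 (28.0 and 19.9) went the other way. The dentate gyrus in turn exceeded the next region, the Myl4/Col5a1 deep cortex at 34.8 CPM, by 0.57 (0.13 to 1.02). The Ccn2/Cplx3 deep cortex had 14.0 CPM. Dorsal midbrain, Six3/Ttr, Klk6/Gfap and ventral midbrain all lay between 4.25 and 5.04 CPM on 2 to 9 UMIs each and could not be ranked. Tph2/Slc18a2 had no Gabrd UMI, for which a limit of 3 counts corresponds to 3.71 CPM.

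Gabra5, which encodes alpha5, had another order. It peaked in the Ccn2/Cplx3 deep cortex at 321 CPM (287 to 358, 320 UMIs), exceeding the dentate gyrus, the next region at 161 CPM (143 to 180, 299 UMIs), by 1.00 on the log2 scale (0.76 to 1.23). Penk/Adam33 had 146 CPM and Gpr161/Fezf2 112 CPM. Upper cortex was the lowest of all 17 regions, at 27.1 CPM (20.1 to 35.9, 49 UMIs), next to Klk6/Gfap at 29.2 CPM and Slc18a3/Prph at 32.5 CPM, from which it did not differ beyond counting error. Cortex therefore held both ends of the range of Gabra5, with the upper region low and the Ccn2/Cplx3 region high. The Ccn2/Cplx3 spots in the lower columns of the array (52 spots, left on the map) had 372 CPM and those in the higher columns (23 spots) 157 CPM. In the higher columns, where all of upper cortex lay, 157 CPM (110.2 to 216) was above the 81.3 CPM (69.9 to 94.1) of the Myl4/Col5a1 region.

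**Figure D2:**
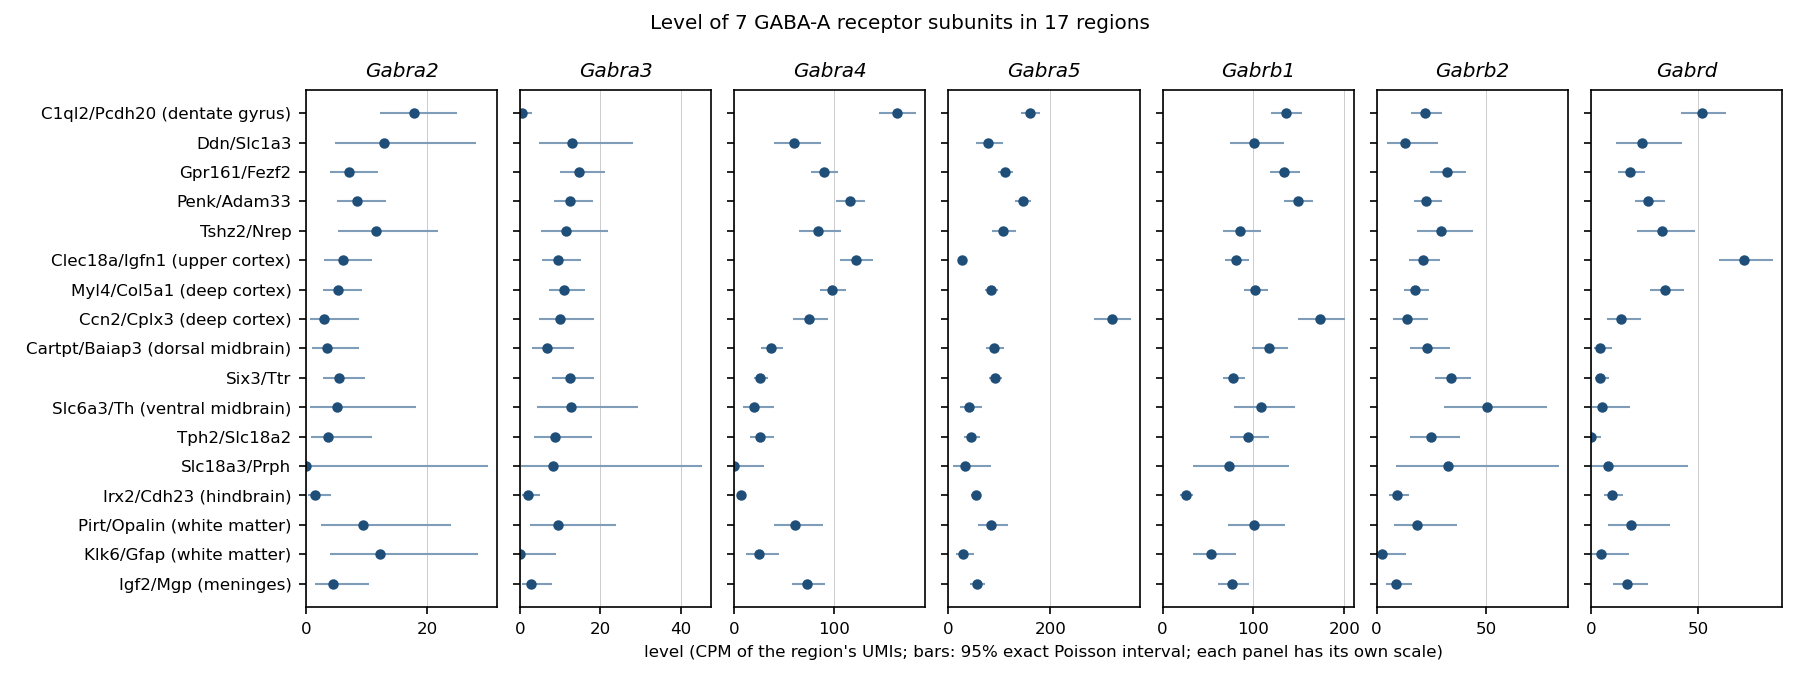
Level of each of the 7 subunits (CPM, horizontal axis, a separate scale per panel) in the 17 regions (rows), with bars for the exact Poisson 95% interval. Gabra4 is highest in the dentate gyrus, Gabrd in upper cortex, Gabra5 in the Ccn2/Cplx3 deep cortex and Gabrb2 in the ventral midbrain.

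The 2 synaptic alpha subunits among the 7 had few UMIs, 144 for Gabra2 and 182 for Gabra3. Gabra2, which encodes alpha2, had its highest level in the dentate gyrus, at 17.8 CPM (12.2 to 24.9, 33 UMIs), with Ddn/Slc1a3 at 12.9 CPM (6 UMIs) next. No neighbours in the order of Gabra2 differed beyond counting error. Against the pooled cortex, at 5.12 CPM (26 UMIs), the dentate gyrus was 1.79 higher on the log2 scale (1.01 to 2.59).

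Gabra3, which encodes alpha3, was low in the dentate gyrus, where 1 UMI among 1859154 gave 0.538 CPM (0.0136 to 3.00). The pooled cortex had 52 UMIs, or 10.2 CPM, so that the dentate gyrus was lower by a log2 ratio of -4.25 (-9.58 to -1.71). With at least 2000 UMIs per spot and at Leiden resolutions 0.6 and 1.5, where the dentate gyrus took in more spots, the ratio was smaller, at -1.73 (-3.11 to -0.58), -1.81 and -1.78. The 13 highest regions lay between 6.80 and 14.7 CPM, from dorsal midbrain to Gpr161/Fezf2, and no neighbours in that order differed beyond counting error. Meninges at 2.67 CPM, hindbrain at 1.89 CPM and Klk6/Gfap, with no UMI, were also low. Gabra2 and Gabra3 thus differed in the dentate gyrus, where they had 33 UMIs and 1 UMI, while in Penk/Adam33 they had 19 and 28.

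Of the beta subunits, Gabrb1 (beta1) ran from 173 CPM (149 to 201) in the Ccn2/Cplx3 deep cortex, 149 in Penk/Adam33 and 136 in the dentate gyrus down to 53.6 in Klk6/Gfap, and then to 26.0 CPM (19.6 to 33.8, 55 UMIs) in the hindbrain. The hindbrain was the lowest, 1.05 below Klk6/Gfap on the log2 scale (0.26 to 1.78).

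Gabrb2 (beta2) was highest in the ventral midbrain, at 50.4 CPM (30.8 to 77.8, 20 UMIs), followed by Six3/Ttr with 34.2 CPM (26.6 to 43.3, 69 UMIs). These 2 did not differ beyond counting error. The dentate gyrus had 22.1 CPM and the Ccn2/Cplx3 deep cortex 14.0 CPM. The lowest levels were 8.91 CPM in meninges and 2.44 CPM, a single UMI, in Klk6/Gfap. The ventral midbrain was also not resolved from Slc18a3/Prph, Gpr161/Fezf2 (a log2 ratio of 0.66, -0.15 to 1.40) or Tshz2/Nrep (0.78, -0.16 to 1.71). Its first rank was thus not settled.

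Within the family, the share of each subunit among the 7154 UMIs of the 7 genes was 29.98% for Gabrb1, 29.3% for Gabra5, 22.5% for Gabra4, 7.24% for Gabrd, 6.36% for Gabrb2, 2.54% for Gabra3 and 2.01% for Gabra2. These are shares of UMIs, which carry each gene's probe efficiency, so a change of a share between regions can be read and its size within 1 region cannot. In the dentate gyrus the share of Gabra4 was 29.6% (26.8 to 32.5), that of Gabra5 29.1% (26.4 to 32.0) and that of Gabrd 9.35%. Upper cortex had 36.2% Gabra4 (32.4 to 40.1) and 21.1% Gabrd (17.9 to 24.6) beside 8.02% Gabra5 (5.99 to 10.5). The Ccn2/Cplx3 deep cortex had 52.5% Gabra5 (48.5 to 56.6) with 12.3% Gabra4 and 2.30% Gabrd. The hindbrain also had a large Gabra5 share, 48.9% (42.3 to 55.6), on a level of only 53.3 CPM, since its other subunits were low.

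Beta subunits took more of the family in the ventral midbrain and Tph2/Slc18a2 than in the dentate gyrus, but not in every brainstem region. In the ventral midbrain, with 96 UMIs of the family, Gabrb1 held 44.8% (34.6 to 55.3) and Gabrb2 20.8% (13.2 to 30.3). In Tph2/Slc18a2, with 163 UMIs, they held 46.6% and 12.3%. In the dentate gyrus the same pair held 24.6% and 3.99%, and in the hindbrain 23.8% (18.5 to 29.8) and 8.66% (5.37 to 13.1). The family summed to 1027 UMIs in the dentate gyrus and to 19 in Slc18a3/Prph, where no share can be read.

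**Figure D3:**
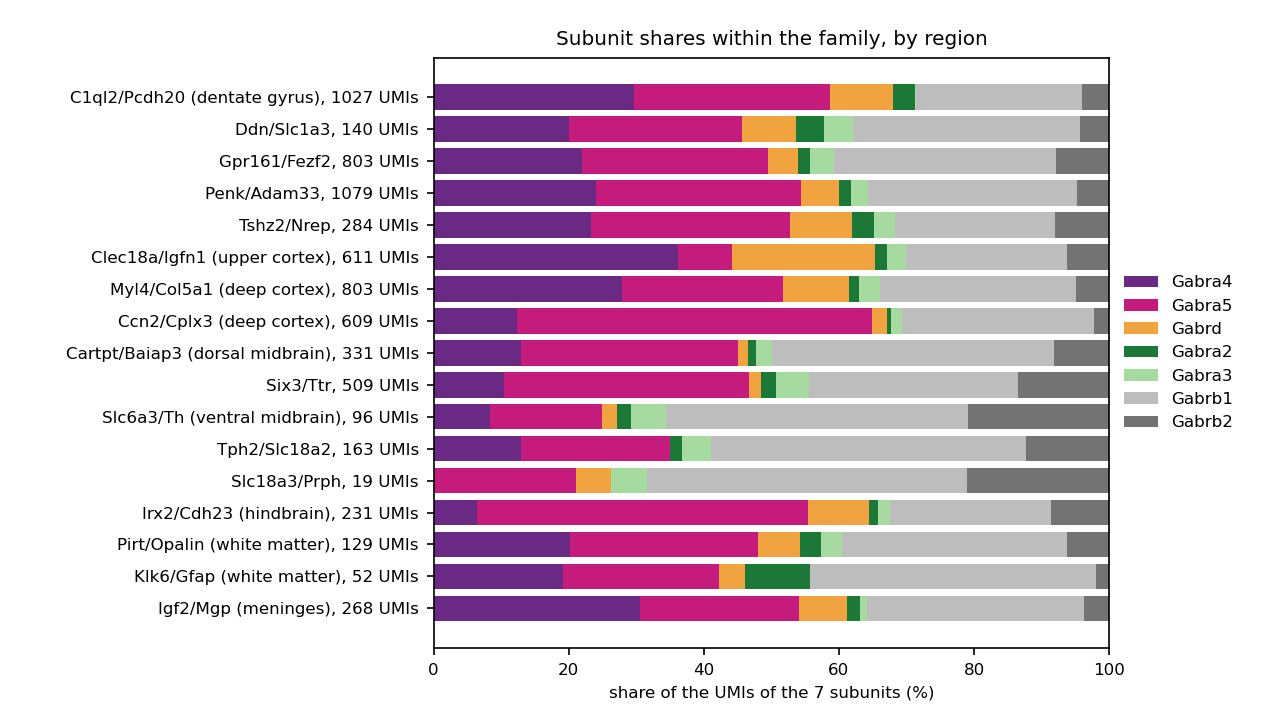
Share of each subunit (horizontal axis, percent of the UMIs of the 7 genes) in each region (rows, with the number of UMIs), extrasynaptic subunits first, then the synaptic alphas, then the betas in grey. Gabra5 fills 52.5% of the bar in the Ccn2/Cplx3 deep cortex and 8.02% in upper cortex.

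Synaptic and extrasynaptic subunits were then set against each other without the betas, as the share of Gabra4, Gabra5 and Gabrd among the UMIs of these 3 plus Gabra2 and Gabra3. The share was 95.4% in the dentate gyrus (93.6 to 96.8, 699 against 34 UMIs), 94.3% in the pooled cortex (93.0 to 95.5, 1302 against 78) and 78.8% in the ventral midbrain (61.1 to 91.0, 26 against 7). Over all tissue spots it was 92.8%. The intervals of dentate gyrus and cortex overlapped, and that of the ventral midbrain lay below both. The level behind the ventral midbrain share was 65.5 CPM of extrasynaptic subunits, against 376 in the dentate gyrus and 257 in cortex, while the level of Gabra2 plus Gabra3 was 17.6 CPM there, 18.3 in the dentate gyrus and 15.4 in cortex. Against dentate gyrus and cortex, the low share there thus went with a low level of the extrasynaptic subunits. That link did not hold in every region. The hindbrain had a similar extrasynaptic level, 70.3 CPM, but a share of 95.5% (91.0 to 98.2), with Gabra2 plus Gabra3 at 3.30 CPM. Nor was the low share particular to the ventral midbrain. Shares inside its interval included Klk6/Gfap (82.8%), Tph2/Slc18a2 (85.1%), Ddn/Slc1a3 (86.2%) and Six3/Ttr (87.3%).

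This split covers only the alpha and delta subunits among the 7 genes, not every subunit of synaptic receptors, and by construction the extrasynaptic share is lower when further synaptic subunits are counted. It is therefore a share among these 5 genes and not of all receptors. Leaving Gabra4 out of the extrasynaptic subunits gave 92.1%, 90.9% and 72.0% for dentate gyrus, cortex and ventral midbrain.

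Ratios between regions were set against those of every gene that reached 100 counts when both regions were summed. Between dentate gyrus and cortex (8138 such genes), 5 of the 7 subunits were measured at this depth and all 5 ratios lay above 0, 3 of them beyond counting error, against 27.9% of all genes higher and 30.1% lower beyond it. None of the 5 reached 2-fold, a size passed by 6.5% of genes upwards and 11.8% downwards (18.3% in all). Their median log2 ratio was 0.33, and that of all genes 0.00. Gabra4 was higher by 0.67 (0.47 to 0.88), Gabra5 by 0.54 (0.34 to 0.75) and Gabrb1 by 0.33 (0.10 to 0.54). Gabrb2, at 0.28 (-0.29 to 0.83), and Gabrd, at 0.24 (-0.12 to 0.59), had intervals that span 0. Weighting each spot equally brought Gabrb2 to 0.72, a weighted value for which no exact counting interval applies. The sign of Gabrd was not settled. The Gabrd ratio turned to -0.08 with each spot weighted equally, also without an exact interval, and to -0.02 (-0.38 to 0.32) with all barcodes. In contrast, the spots marked in both lists gave 0.52 (0.11 to 0.93) and the lower columns alone 2.23 (1.24 to 3.401).

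The Gabra5 and Gabrb1 ratios depended on which cortex was taken. With the lower array columns alone, where cortex was 57 spots of deep cortex, Gabra5 was lower in the dentate gyrus, at -1.18 (-1.41 to -0.94), and so was Gabrb1, at -0.32 (-0.63 to -0.01). With all barcodes, where the deep cortex named by the same markers shared 155 spots with the 303 used here, Gabra5 stood at 1.65. With the spots marked as tissue in both lists it was 0.14 (-0.08 to 0.35). The Gabra4 ratio stayed above 0 under all 8 alternatives, from 0.49 to 1.07. GABAergic neuron markers (9 genes) summed to 104 CPM in the dentate gyrus, where Dlx1 was at 0, and to 1945 CPM in cortex, and glutamatergic markers (5 genes) to 7106 and 7495 CPM. Their part in the subunit ratios was not tested.

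Between dentate gyrus and ventral midbrain (4693 genes), 3 subunits were measured. In 2 of them the dentate gyrus level was at least double that of the midbrain, against 19.2% of genes higher and 11% lower by as much (30.3% in all), and both were beyond counting error, against 34% of genes higher and 23.2% lower. Gabra4 was higher by 3.02 on the log2 scale (2.02 to 4.24), or 8.11-fold, on 304 and 8 UMIs, and Gabra5 by 1.996 (1.27 to 2.82), or 3.99-fold, on 299 and 16 UMIs. Gabrb1, at 0.33 (-0.14 to 0.83), did not differ beyond counting error, except under TMM scaling, at 0.56 (0.09 to 1.06). Under 100 counts, Gabrd had 96 against 2 UMIs, a log2 ratio of 3.36 (1.47 to 6.42). Gabrb2 had 41 against 20 UMIs, a ratio of -1.19 (-1.996 to -0.34), and Gabra3 1 against 5 UMIs, a ratio of -4.55 (-10.1 to -1.39). With each spot weighted equally Gabrb2 came to -0.65, a weighted value for which no exact counting interval applies.

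Between cortex and ventral midbrain (7468 genes), 3 of 5 measured subunits were at least 2-fold higher in cortex and 1 at least 2-fold lower, against 12.3% and 9.67% of genes (22% in all). All 4 were beyond counting error, as were 21% of genes higher and 20.8% lower. Gabrd was higher in cortex by 3.12 (1.25 to 6.17, 222 against 2 UMIs), Gabra4 by 2.35 (1.36 to 3.57) and Gabra5 by 1.45 (0.74 to 2.27). With all barcodes Gabra5 was higher by 0.20 (-0.49 to 0.98), no longer beyond counting error, and with the lower columns alone Gabrd was higher by 1.13 (-1.14 to 4.38). Gabrb2 was lower in cortex, at -1.47 (-2.18 to -0.70), and Gabrb1 stood at 0.00 (-0.45 to 0.49), or 0.68 (0.17 to 1.21) with the lower columns alone. Oligodendrocyte markers (6 genes, none at 0) summed to 5777 CPM in the ventral midbrain, 1004 in cortex and 111 in the dentate gyrus, and glutamatergic markers to 642 CPM in the ventral midbrain. Their part in these ratios was not tested.

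Between upper and deep cortex (7189 genes), 4 subunits were measured, of which Gabrd was at least 2-fold higher and Gabra5 at least 2-fold lower in upper cortex, against 1.89% and 2.63% of genes (4.52% in all). All 4 were beyond counting error, 2 in each direction, as were 17% of genes higher and 17.3% lower. Gabra5 had 49 UMIs in upper and 511 in deep cortex, or 27.1 and 156 CPM, a log2 ratio of -2.53 (-2.98 to -2.10). Gabrd had 129 and 93 UMIs, or 71.4 and 28.4 CPM, a ratio of 1.33 (0.93 to 1.73). Gabra4 was higher in upper cortex by 0.42 (0.16 to 0.68) and Gabrb1 lower, at -0.62 (-0.90 to -0.34). The contrast of Gabra5 and Gabrd kept its direction under every alternative that gave a value, including the higher columns alone (-1.71 for Gabra5) and all barcodes (-1.05 for Gabra5 and 0.84 for Gabrd). That of Gabrb1 came to -0.09 (-0.39 to 0.21) with all barcodes. GABAergic markers summed to 1185 CPM in upper and 2366 CPM in deep cortex, with none at 0, and their part was not tested.

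**Figure D4:**
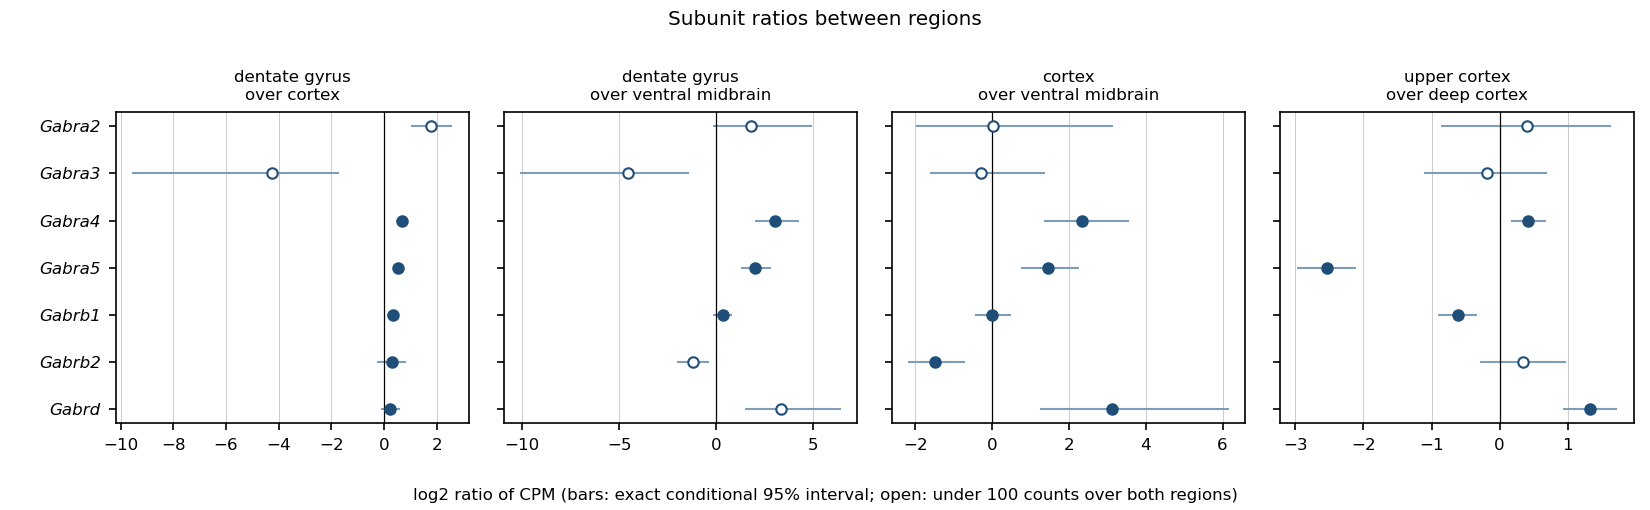
Log2 ratio of CPM (horizontal axis) of the 7 subunits in 4 comparisons of regions, with bars for the exact conditional 95% interval and open points where both regions together had under 100 counts. In the upper against deep cortex panel Gabra5 lies at -2.53 and Gabrd at 1.33, and Gabrb2 lies left of 0 in both panels with the ventral midbrain.

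Around the dentate gyrus, levels were followed by grid distance from its nearest spot. Gabra4 went from 164 CPM in the dentate gyrus to 76.3 CPM (41.7 to 128) at 1 spot spacing (38 spots) and 21.9 CPM (5.96 to 56.0, 4 UMIs) at up to 2.5 spacings (40 spots). It was 58.7 CPM in the next 109 spots and 77.9 CPM at a mean distance of 11.4 spacings (416 spots). Gabrd went from 51.6 to 38.1 CPM (15.3 to 78.6, 7 UMIs) and 16.4 CPM (3.38 to 47.9, 3 UMIs), then stayed between 4.69 and 17.3 CPM. Gabrb1 was 136 CPM inside and between 87.2 and 139 CPM in all bins outside. The nearest spots were mostly of the Ddn/Slc1a3 region, whose median depth was 3177 UMIs, so the near bins rest on few counts.

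Among the other subunits of the panel, Gabrg3 (457 UMIs), a gamma subunit, had a log2 ratio of dentate gyrus over cortex of -1.04 (-1.70 to -0.43) and of upper over deep cortex of -0.70 (-1.28 to -0.15), so both were lower beyond counting error. Between cortex and ventral midbrain it stood at 0.05 (-0.83 to 1.09). Alpha6, known from cerebellar granule cells, had 1 UMI in Gabra6, and Gabre and Gabrp had none.

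The scaffold and trafficking genes of inhibitory synapses were split between dentate gyrus and cortex. Of 18 measured, 9 were higher (8 beyond counting error) and 9 lower (5 beyond it) in the dentate gyrus, with a median log2 ratio of -0.05, against 27.9% of all genes higher and 30.1% lower beyond it and a median of 0.00. The 5 lower are near the share of all genes. The largest were Igsf9b, an adhesion molecule of inhibitory synapses, at -4.22 (4 against 203 UMIs), Slitrk3, a postsynaptic adhesion molecule, at 1.42, Plcl2, which binds GABA-A receptors, at -1.28, and Iqsec3, a gephyrin-binding exchange factor, at -1.26. Against the ventral midbrain, 14 were measured, 6 higher and 8 lower in the dentate gyrus, with 5 beyond counting error in each direction. Of all genes, 34% were higher and 23.2% lower beyond it. The median of the 14 was -0.09, against 0.17 for all genes. At least 2-fold apart were 2 higher and 1 lower. Slitrk3 was higher in the dentate gyrus by 2.10 and Shisa7, an auxiliary protein of GABA-A receptors, by 2.08. Between upper and deep cortex, 17 were measured with a median of 0.02, and Mdga1, which binds neuroligins, was the furthest, at -1.41.

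Genes of GABA synthesis, release and uptake had the lower level in the dentate gyrus, against cortex, in 6 of 6 measured cases, 5 beyond counting error, with a median of -0.97, against 30.1% of all genes lower beyond it. Slc32a1, the vesicular GABA transporter, was at -3.14, Gad2, a GABA-synthesising enzyme, at -2.45, and Slc6a11, a glial GABA transporter, at -1.15. Against the ventral midbrain, 4 of 4 were lower in the dentate gyrus, all beyond counting error against 23.2% of all genes, with Gad2 at -4.75 and Slc6a11 at -4.06. All 6 measured in cortex against ventral midbrain were lower in cortex as well, 5 of them beyond counting error against 20.8% of all genes. Astrocyte markers (6 genes, none at 0) summed to 404 CPM in the dentate gyrus, 753 in cortex and 2111 in the ventral midbrain, the same order as the glial Slc6a11, and their part was not tested. The subunit genes and the GABA-producing genes thus had opposite orders between dentate gyrus and ventral midbrain for Gabra4, Gabra5 and Gabrd, but not for Gabra3 and Gabrb2, which were lower in the dentate gyrus too.

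GABA-B receptor genes, which act through G proteins, were higher in the dentate gyrus than in cortex in 3 of 4 cases, all 3 beyond counting error, against 27.9% of all genes, with a median of 0.51. Kctd12 and Kctd16, auxiliary subunits, were at 2.81 and 0.88, whereas Gabbr1 was at -0.28. Kctd16 was also higher in upper than in deep cortex, by 1.51 (1.36 to 1.67). Genes that set the chloride gradient, on which the effect of GABA-A channels depends, lay below the cortex level in 5 of 5 cases, with a median of -0.30. Of these, 2 were beyond counting error, which is near the 30.1% of all genes. Stk39, a kinase of chloride cotransporters, was at -0.69, Clcn2, a chloride channel, at -0.44, and Slc12a5, the chloride exporter KCC2, at -0.06 (-0.35 to 0.23). Slc12a5 was higher in upper than in deep cortex by 0.67 (0.37 to 0.96). Glycine receptor and neurosteroid synthesis genes were mostly too low to compare: of 6 and 7 listed, 2 and 1 were measured between dentate gyrus and cortex. Slc6a9, a glycine transporter of glia, was at -1.24, and Srd5a1, an enzyme of neurosteroid synthesis, at -1.02.

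The genes whose pattern over the 17 regions was most like that of each subunit were ranked by Pearson's r of log2 CPM, after adding 10 CPM, among 9545 genes with at least 200 UMIs. These r values describe regions of 1 library that share depth and cell content, and some of the genes helped to define the regions.

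Gabra4 was closest to Gas7 (r = 0.97), Synpo (r = 0.97), an actin-binding protein of dendritic spines, Pcdhgc5 (r = 0.96), Mpp2 (r = 0.96) and Adgrb2 (r = 0.95). Gas7 ranked first in 4 of 5 checks that left out 1 region, and 4 without Slc18a3/Prph. Without both Slc6a3/Th and Slc18a3/Prph it ranked 8. Gabrb1, the head-to-head neighbour of Gabra4, had r = 0.61 with it and rank 1291. Gabrd had r = 0.75 with Gabra4, rank 529, and was itself closest to Lmo4 and Lrrc4 (both r = 0.90). With regions left out, Lmo4 was never first and ranked from 2 to 5. Gabra5 was closest to Rab26 (r = 0.83), which ranked 6 without Ccn2/Cplx3. Gabrb1 was closest to Ly6h (r = 0.92) and Cdh13 (r = 0.88), and then to Gria1, an AMPA receptor subunit (r = 0.88). Among the 5 closest to Gabrb2 were Cct7 and Usp15 (both r = 0.82). They ranked 17 and 15 without Slc6a3/Th, and 57 and 31 without both Slc6a3/Th and Slc18a3/Prph. Gabra2 and Gabra3, on low counts, were closest to Arsb (r = 0.92) and Dab2ip (r = 0.81). Between the members, Gabra5 and Gabrb1 had r = 0.66, Gabra4 and Gabrb2 -0.05, and Gabra2 and Gabra3 -0.12.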

How the data were processed

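The labels give 2 Visium CytAssist samples of mouse brain. Deposited were UMI counts of genes by spots, as whole numbers without normalization. Their headers name Space Ranger 3.1.1, and mm10 is the build in the submitters' processing notes. The sources used here do not state the counting settings. Both samples hold byte-identical matrix, barcode and feature files, so 1 library was used. Tissue marks and array positions came from the deposited spot lists.

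Spots of the WT list with at least 500 UMIs were kept (2 left out). Clustering used Python 3.11.15 with scanpy 1.11.5, igraph 0.11.9 and anndata 0.12.19: 10000 counts per spot, log, 2000 variable genes seen in at least 10 spots, 30 components, 15 neighbours, Leiden resolution 1, seed 0. None of the 107 genes of the members, pathway and cell content lists could be a variable gene. A cluster took the name of the class with most markers at a log2 fold of at least 1 (CPM plus 10), if at least 3 and if its marker of highest fold was of that class. UMIs were summed per region, and exact 95% intervals were computed with scipy 1.17.1 and numpy 2.4.6. With 1 library there is no replicate, and no p-value was computed. The function for ratios and their intervals was tested on simulated Poisson counts. Clustering, region naming and pattern ranks were not tested in this way. No doublet caller or deconvolution was run. edgeR 4.0.16 gave TMM factors as an alternative scaling.

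The members, lists and alternatives were chosen with earlier results of these data known. All 7 members are named in the text. Some other genes are not reported here. From each other list at most 4 genes of largest ratio per comparison are named, and up to 5 genes of most similar pattern per member. Slc12a5 against cortex and the pairs among the members were named for their function, after their values were seen.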

Additional observations from a re-analysis of the deposited data

How the results depend on the processing

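No paired analysis was possible because both samples hold the same matrix, which is 1 library, and each group has 1 replicate. Of the 28 member ratios, 18 had intervals that leave out 0. Over their 144 alternatives, 128 lay within the 95% interval of the value reported, 14 lay outside it in the same direction and 2 reversed: Gabra5 (-1.18) and Gabrb1 (-0.32) in dentate gyrus over cortex with the lower array columns only. There cortex is 57 spots of deep cortex. The alternatives reuse counts of the same library, and a wide interval takes in large moves, so the tally is no measure of replication. Gabra3 in dentate gyrus over cortex, for example, went from -4.25 to -1.73 at 2000 UMIs per spot and still lay within its interval. The extrasynaptic share of the dentate gyrus was 92.1% without Gabra4, and that of cortex was 97.3% in the lower columns and 90.9% without Gabra4. Genes at least 2-fold apart numbered 1491 between dentate gyrus and cortex (933 in the lower columns, 2621 with a minimum of 20 counts, 4490 with none). They numbered 1420 between dentate gyrus and ventral midbrain (3328 and 6294 with these minimums) and 1643 between cortex and ventral midbrain (597 in the lower columns, 3022 and 6092). Between upper and deep cortex there were 325 (187 with all barcodes, 823 and 2340). Lower minimums add genes of few counts. TMM scaling raised the log2 ratios by 0.23 in dentate gyrus over ventral midbrain and by 0.20 in cortex over ventral midbrain. The split of 2-fold genes was 902 higher and 518 lower for the first, 1206 and 365 under TMM, and 921 and 722 for the second, 1267 and 478 under TMM. At 2000 UMIs and at resolutions 0.6 and 1.5 the naming rule put 205 to 207 spots in the dentate gyrus, of which 67 were those used here. One side of the array gave no value for a region with fewer than 20 spots: the higher columns for dentate gyrus and ventral midbrain, the lower for upper cortex. The restriction to spots marked in both lists and the leaving out of regions were chosen after seeing the data. Depth limits Gabra2, Gabra3, Gabrd and Gabrb2 in the ventral midbrain, which had 2, 5, 2 and 20 UMIs.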

Other observations

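A subunit outside the 7 marked another region. Gabrq, which encodes the theta subunit, had 45 of its 128 UMIs in Tph2/Slc18a2, a region led by genes of serotonin neurons, at 55.6 CPM (40.6 to 74.4). Dorsal midbrain followed with 22.1 CPM (14.4 to 32.4), lower by 1.33 on the log2 scale (0.60 to 2.09). The same Tph2/Slc18a2 spots had no Gabrd UMI and 36 of Gabra5. Gabrg1 (71 UMIs) had its highest levels, near 10 CPM, in Ddn/Slc1a3 (10.7), ventral midbrain (10.1) and Tph2/Slc18a2 (9.89), which did not differ beyond counting error.

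Within a single region the lower and higher array columns also differed for some subunits. In Gpr161/Fezf2, the arc around the dentate gyrus, Gabrd was 8.36 CPM (3.61 to 16.5) in the lower columns and 27.7 CPM (18.4 to 40.0) in the higher ones. Gabrb2 was 21.9 CPM (13.6 to 33.5) and 41.5 CPM (29.9 to 56.1) on the same sides. Gabrb1 was 156 CPM (132 to 183) in the lower columns and 114 CPM (93.8 to 136) in the higher ones.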
